A study of Caenorhabditis elegans with 2 samples.

Results

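The 735 regions described here are the genomic regions of an eGFP-SKN-1 ChIP-seq experiment that were strong in each of 2 biological replicates without reaching the authors' list of thresholded peaks. They were chosen from the relaxed list of the pooled replicates, which holds 29768 regions on the ce11 assembly. A pooled region was taken if it overlapped, by at least 1 bp, one of the 5000 regions of highest deposited signal in replicate 1 and also one of the 5000 of highest signal in replicate 2. The 97 thresholded peaks were left out. Of the 29671 remaining pooled regions, 735 were members (2.48%), 3447 were strong in replicate 1 only, 4217 in replicate 2 only and 21272 in neither. The signal values of both replicates chose the members, so signals and ranks are given below as a description without a test.

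Chromatin immunoprecipitation followed by sequencing recovers DNA fragments bound by a protein and locates them on the genome. Both samples were whole L4 larvae, a stage just before adulthood, of the nematode *Caenorhabditis elegans*, of mixed sex and unstated age, with no treatment in the labels. Both were of strain OP342, which carries the *unc-119* allele ed3 on chromosome III and the insertion wgIs342, the source of eGFP-tagged SKN-1. The promoter that drives the transgene and its copy number are not given in the labels, and no untagged worms are among the samples. Whole animals were used, so tissues cannot be told apart.

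SKN-1 is the worm relative of the mammalian Nrf transcription factors. It has a basic region like that of bZIP proteins but no leucine zipper, and it binds DNA as a monomer. In the embryo it specifies the endoderm, and later it acts in the intestine and in a pair of head neurons, where it is known for switching on detoxification genes, proteasome genes and responses to starvation and stress. Its known site reads A or T, A or T, T, A or G, then TCAT, on either strand.

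Members at promoters are shown first, as the central 151 bases of 5 members whose centre lay in a promoter window, here the stretch between 1000 bp before and 500 bp after the outermost start annotated for a protein-coding gene. They were taken from the leading members (those not beside a stronger pooled region, as defined below) in order of their worse rank in the 2 replicates. The members of *hsp-3*, where the stretch overlaps a UTR, and *ftt-2* come earlier in that order than some of those printed and are described below without sequence. All sequences were read from the RefSeq genome of the assembly WBcel235, which is ce11, and are on the plus strand. The *dnj-13* member was centred in an intron and also lay 656 bp upstream of *F54D5.9*. The *pqn-51* member also lay 144 bp upstream of *K11D12.14*. Capitals mark a match to one of the 7 motifs searched, which were AP-1 (TGACTCA) in *cebp-1*, the GAGA repeat (GAGAGAGA, here read on the other strand) in *dnj-13* and *pqn-51*, and the E2F-type motif (TTTCGCG) in *pqn-51*.
*sym-4*, chrX:14169753-14169903: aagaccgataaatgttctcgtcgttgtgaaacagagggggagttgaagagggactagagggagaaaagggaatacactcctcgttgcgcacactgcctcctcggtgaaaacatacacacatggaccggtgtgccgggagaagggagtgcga
*cebp-1*, chrX:1454454-1454604: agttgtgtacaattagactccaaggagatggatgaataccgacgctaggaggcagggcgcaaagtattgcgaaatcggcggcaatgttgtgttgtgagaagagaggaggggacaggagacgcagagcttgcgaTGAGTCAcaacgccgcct
*cct-8* and *Y55F3AR.2*, chrIV:1094291-1094441: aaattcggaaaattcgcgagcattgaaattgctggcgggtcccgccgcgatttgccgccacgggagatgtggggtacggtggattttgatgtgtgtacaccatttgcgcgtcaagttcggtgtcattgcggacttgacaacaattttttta
*dnj-13*, chrII:11545409-11545559: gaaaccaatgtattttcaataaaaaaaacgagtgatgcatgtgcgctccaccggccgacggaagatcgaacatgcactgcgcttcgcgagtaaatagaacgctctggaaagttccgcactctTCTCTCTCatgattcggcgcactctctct
*pqn-51*, chrV:5049417-5049567: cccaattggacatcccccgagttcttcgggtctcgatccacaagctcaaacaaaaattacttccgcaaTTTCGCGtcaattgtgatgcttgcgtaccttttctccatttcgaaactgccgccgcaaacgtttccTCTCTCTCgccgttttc

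The second set is the central 121 bases of 3 strong members beside genes of small nuclear RNA (snRNA) or small nucleolar RNA (snoRNA), the feature with the largest odds ratio of those tested between the members and regions strong in 1 replicate. None of the 7 motifs occurs in these stretches.
snRNA gene *R07E5.16*, nearest protein-coding start *col-94*, chrIII:10989588-10989708: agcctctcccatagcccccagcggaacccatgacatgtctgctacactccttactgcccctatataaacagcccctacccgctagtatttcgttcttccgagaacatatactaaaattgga
snoRNA gene *C05D2.15*, nearest protein-coding start *madf-11*, chrIII:5602080-5602200: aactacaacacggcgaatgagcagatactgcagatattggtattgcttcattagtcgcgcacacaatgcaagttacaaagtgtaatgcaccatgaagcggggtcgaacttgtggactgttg
snoRNA gene *ZK994.7*, nearest protein-coding start *pxn-1*, chrV:8500525-8500645: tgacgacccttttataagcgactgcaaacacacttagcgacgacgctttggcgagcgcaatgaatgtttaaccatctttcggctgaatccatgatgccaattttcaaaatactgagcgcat

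The third set compares 5 strong members that hold the SKN-1 site with 4 that hold the GAGA repeat, both within 100 bp of the centre. Members whose stretch overlaps a UTR were passed over, such as one near *pro-1* with the site and a pooled rank of 270. The frequency of the GAGA repeat differed between the members and regions strong in 1 replicate, and that of the SKN-1 site did not detectably. Capitals mark the site or the repeat, and the first 5 lines are the SKN-1 site. Each line names the nearest protein-coding start and the class at the region centre, which can belong to another gene. The coding exon centres lay 426 bp upstream of the *wrt-3* start and 5664 bp upstream of the *Y71H10B.1* start.
*kin-20*, intron, chrX:15275889-15275936: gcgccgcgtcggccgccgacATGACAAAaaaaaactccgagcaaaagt
*wrt-3*, coding exon, chrIV:9477912-9477959: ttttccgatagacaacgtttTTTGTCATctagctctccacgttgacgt
*ZC21.8*, intron, chrIII:8512178-8512225: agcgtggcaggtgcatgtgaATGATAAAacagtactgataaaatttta
*Y71H10B.1*, coding exon, chrX:2845855-2845902: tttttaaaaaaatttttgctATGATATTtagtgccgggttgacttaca
*cts-1*, intergenic, chrIII:10217030-10217077: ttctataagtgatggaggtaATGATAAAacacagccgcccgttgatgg
*Y54G11A.2*, intergenic, chrII:14251581-14251628: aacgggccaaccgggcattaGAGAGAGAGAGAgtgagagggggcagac
*nhr-34*, intergenic, chrIV:9677846-9677893: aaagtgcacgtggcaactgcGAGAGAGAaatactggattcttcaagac
*T19C3.4*, intergenic, chrIII:623923-623970: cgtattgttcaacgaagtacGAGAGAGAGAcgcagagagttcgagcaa
*epg-9*, intergenic, chrIV:2599858-2599905: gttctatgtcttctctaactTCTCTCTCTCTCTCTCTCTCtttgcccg

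The 2 replicates picked out largely different regions below the thresholded peaks. Of the 4182 pooled regions that were strong in replicate 1, 735 were also strong in replicate 2 (17.6%). Of the 25489 that were not strong in replicate 1, 4217 were strong in replicate 2 (16.5%). The 2 shares were close, but 16.5% is not a chance level. The signal of both replicates enters the pooled list, and the thresholded peaks were left out. Among the regions of either replicate, the overlap was concentrated at the top of the rank order. Of the 100 strongest regions of replicate 1, 69% overlapped one of the 5000 strongest of replicate 2. This share was 29.5% at ranks 101 to 500, 17.2% at ranks 501 to 1000, 9.3% at ranks 1001 to 5000 and 4.56% at ranks 20001 to 30000. In the opposite direction the shares were 58%, 24.5%, 16.2%, 10.4% and 4.84%. These shares include the thresholded peaks.

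Members were likewise concentrated at high pooled signal. Of the 103 pooled regions ranked 98 to 200, 69 were members (67.0%). The share was 42.3% at ranks 201 to 500, 20.2% at ranks 501 to 1000, 11.5% at ranks 1001 to 2000, 4.43% at ranks 2001 to 5000 and 0.767% beyond. The last bin still contributed 190 members because it holds 24768 regions. The signal of both replicates enters the pooled list, so this gradient describes the rule.

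The members' signals reached well above the limits of the rule, but their medians were near them. In replicate 1 they ran from 7.14 to 22.3 with a median of 8.95, above a limit of 7.14. In replicate 2 they ran from 8.12 to 26.0 with a median of 10.1, above a limit of 8.11. The pooled signal ran from 7.002 to 29.0 with a median of 16.8. Signal values are those of the authors' peak caller, their scale is not stated, and they are compared within a list only. The replicate 1 region was better ranked for 367 members and the replicate 2 region for 368. Both ranks were within the best 500 for 48 members, within 1000 for 106 and within 2500 for 297. Spearman's correlation of the ranks over the 735 members was 0.138, given as a description because overlapping members share replicate regions and because the rule truncates both ranks.

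**Figure D1:**
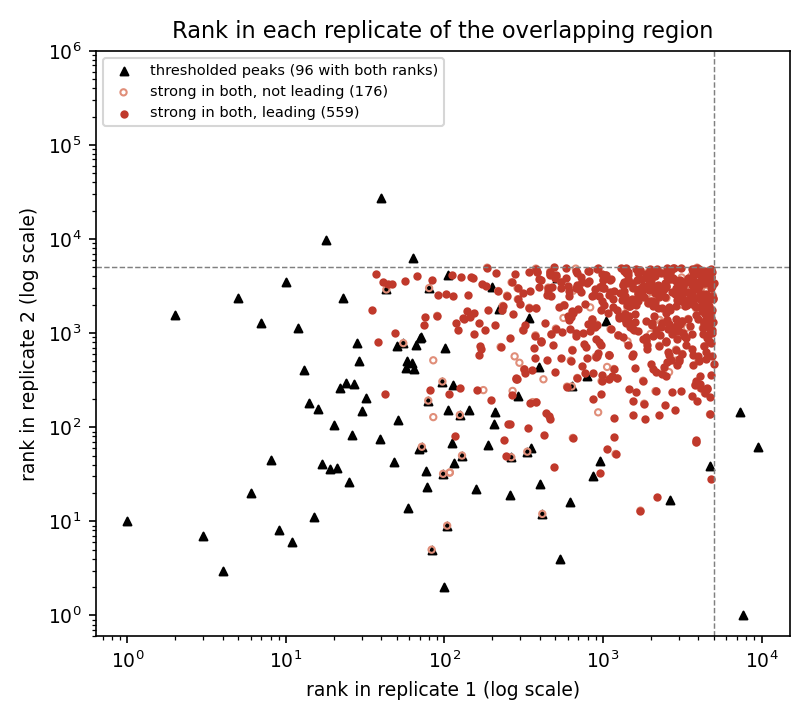
Rank of the overlapping region in replicate 1 (x, log scale) against replicate 2 (y, log scale) for members that lead their replicate regions (559, filled circles), members that do not (176, open circles) and 96 thresholded peaks (triangles); dashed lines mark rank 5000. Most members crowd towards the corner at rank 5000, many open circles lie under filled ones with the same ranks, and the open circles that coincide with triangles are members that share replicate regions with a thresholded peak.

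Members just inside and just outside the rule differed little. The last member by replicate 1 lay in a coding exon, nearest to the start of *M01A8.1*, with signals of 7.14 in replicate 1 (rank 4990) and 8.88 in replicate 2. The last by replicate 2 lay nearest to *ptr-13*, with a replicate 2 signal of 8.12 (rank 4987) and a replicate 1 signal of 11.5. Just outside, a region 297 bp upstream of *imb-3* had rank 1242 in replicate 1 and rank 5005 in replicate 2, where its signal was 8.11.

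The 735 members were not 735 separate places. They rested on 613 distinct regions of replicate 1 and 608 of replicate 2, and they formed 604 stretches that did not overlap each other. In 559 members the pooled region had the highest pooled signal of all those overlapping the same strong replicate regions, and these are called leading. The other 176 lay beside a stronger pooled region. For 77 members the 2 replicate regions did not overlap each other at all, although both touched the pooled region. In addition, 18 members shared a replicate region with a thresholded peak and 23 lay within 1000 bp of one.

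The replicates placed their regions about as far apart in members as in weak regions. The distance between the centres of the replicate 1 and replicate 2 regions had a median of 138 bp in the members, 140 bp in 4834 regions that were strong in neither replicate but overlapped a region of each, and 36.5 bp in 96 thresholded peaks. The centres were within 50 bp of each other in 21.4% of members, 20.4% of the regions strong in neither and 64.6% of thresholded peaks. The median was 125 bp for leading members and 178.5 bp for the others. Median region width was 240 bp for replicate 1 and 396 bp for replicate 2, and all but 4 pooled regions were 390 bp wide. The overlap that the rule requires limits these distances in every class.

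**Figure D2:**
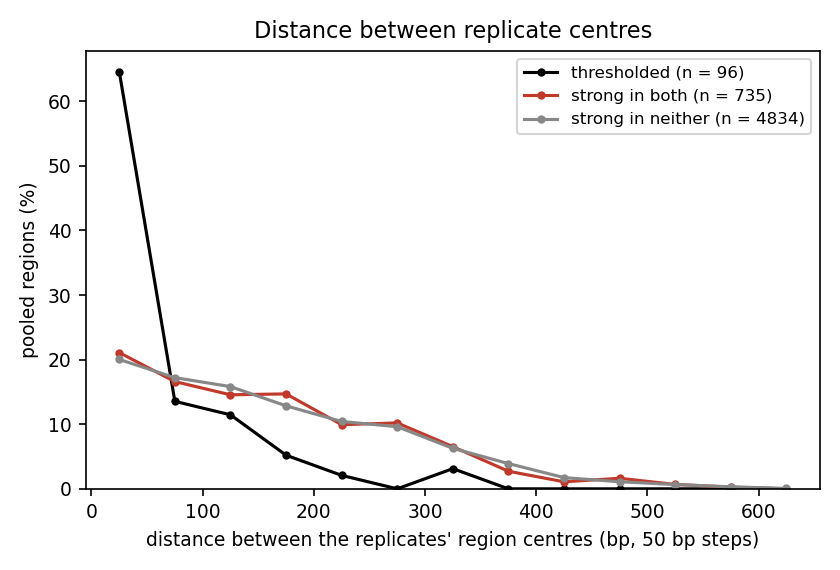
Distance between the centres of the replicate 1 and replicate 2 regions that overlap a pooled region (x, bp, in 50 bp steps) against the share of pooled regions (y, %), for thresholded peaks, members and regions strong in neither replicate. The line of the members follows that of the regions strong in neither (medians 138 and 140 bp), while 64.6% of thresholded peaks have centres within 50 bp.

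Several of the best-ranked members were the edges of thresholded peaks. The member with the best worse rank was intronic, 4661 bp past the start of *gei-4* (chromosome III, 349944 to 350333), with rank 72 in replicate 1 and 62 in replicate 2. Its pooled signal was only 8.84 (rank 18102), and the centre of a thresholded peak was 200 bp away. The next member lay 755 bp upstream of *ain-1*, which encodes a GW182-type protein of the microRNA silencing complex, with ranks 83 and 5, a pooled rank of 4916 and a thresholded peak 241 bp away. Members at *F58D5.5*, *W06H8.6*, *hlh-11*, *atx-2* and *ins-39* also had a thresholded centre within 200 to 280 bp. In these 7 members the replicate ranks belong to replicate regions that the thresholded peak overlaps as well.

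Of the others among the 20 with the best worse rank, 2 overlapping intronic members nearest to *npax-3* shared replicate regions at ranks 108 and 33, whose centres were 368 bp apart. The intronic member nearest to *ppfr-1* had ranks 85 and 128 with centres 529 bp apart, and the intronic member nearest to *F53A3.1* had ranks 42 and 228 with centres 225 bp apart.

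The best leading member (chromosome V, 12303446 to 12303835) covered the snoRNA gene *C51F7.4* in an intron, nearest to the start of *F55C5.17*. It had signals of 16.2 in replicate 1 and 16.6 in replicate 2, at ranks 116 and 81, and the replicate centres were 3 bp apart. The member of *sym-4*, whose sequence is given above, was centred 209 bp upstream of the gene, with signals of 14.02 and 14.65 at ranks 196 and 193. The member 63 bp upstream of *hsp-3*, which encodes an endoplasmic reticulum chaperone of the BiP type (chromosome X, 6091992 to 6092381), had signals of 16.8 and 14.4 at ranks 107 and 223 and a pooled signal of 28.8. In these members both replicates ranked the region highly and placed it within 23 bp.

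Other leading members varied in how closely the replicates placed their regions. The member 661 bp upstream of *cebp-1*, a bZIP factor gene of the C/EBP family, had ranks 236 and 74 with centres 251 bp apart. The member 518 bp upstream of *ftt-2*, a 14-3-3 protein gene (chromosome X, 11605742 to 11606131), had ranks 244 and 49, but the replicate centres were 462 bp apart and the pooled rank was 9482. The replicate regions therefore did not meet there. The region shared by *cct-8*, a subunit of the cytosolic chaperonin, and *Y55F3AR.2* had ranks 161 and 247 with centres 10 bp apart. The intronic member nearest to the start of *kin-20*, a casein kinase gene of the developmental timing pathway, led all members by pooled signal (29.0, rank 98), with ranks 267 and 218. The intronic member nearest to *gsa-1*, which encodes a stimulatory G protein subunit, had ranks 252 and 107.

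Members lay at gene starts more often than weak regions and less often than thresholded peaks. The centre was in a promoter window for 265 of 735 members (36.1%, exact 95% interval 32.6 to 39.6%). The share was 29.0% in regions strong in neither replicate (odds ratio of 1.38, adjusted p by Fisher's exact test = 0.000207 over 4 comparisons) and 29.7% in regions strong in replicate 2 only (odds ratio 1.33 by Fisher's exact test, adjusted p = 0.00143). It was 32.4% in regions strong in replicate 1 only, a difference that did not pass (odds ratio of 1.18, adjusted p by Fisher's exact test = 0.0573), and 53.6% in the thresholded peaks (odds ratio 0.488 by Fisher's exact test, adjusted p = 0.00156). With the window narrowed to 500 bp upstream of the start, the difference from replicate 1 only passed (19.7% against 13.7%, odds ratio of 1.55, adjusted p by Fisher's exact test = 5.83e-05). Among regions of pooled rank 3000 or better, the difference from regions strong in neither did not pass (38.9% against 34.3%, Fisher's exact test, adjusted p = 0.160). All tests here treat regions as independent, which overlapping regions are not, and intervals cover counting error over regions, not variation between worms.

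The members' windows held 290 of 19973 protein-coding genes (1.45%), in 346 pairs of a region and a gene. In 272 of the 346 pairs the centre was upstream of the start, and the median position was 239 bp upstream. A member lay in 2 or more windows in 78 cases. At the other extreme, 94 members were over 5000 bp from any protein-coding start, and the median distance to the nearest was 1280 bp. Of the 290 genes, 11 were among the 74 genes, of all 19973, that the windows of the thresholded peaks held. The 290 include genes of the 23 members within 1000 bp of a thresholded peak. Without those members the genes numbered 276. Regions strong in exactly 1 replicate reached 2436 genes (12.2%).

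**Figure D3:**
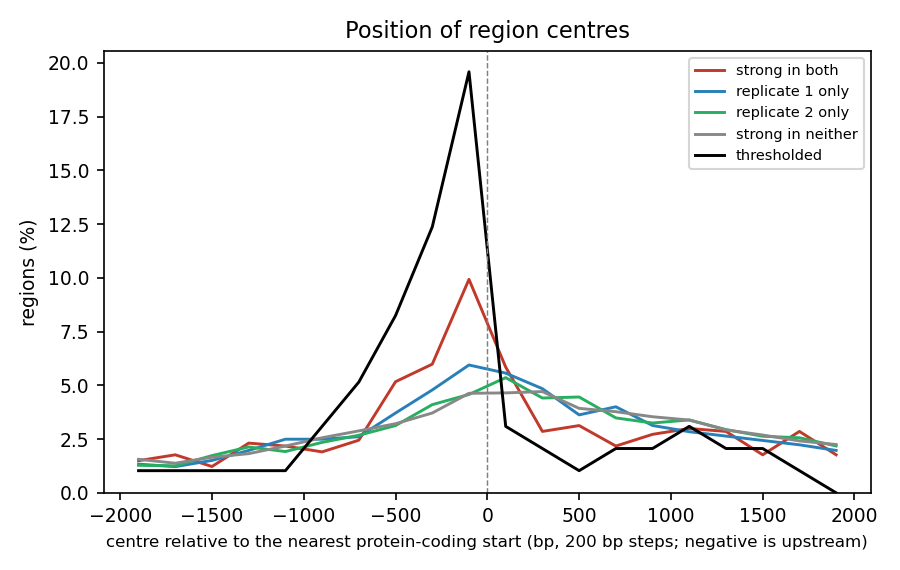
Position of region centres relative to the nearest protein-coding start (x, bp, negative is upstream, in 200 bp steps) against the share of regions (y, %) for the 5 classes of pooled regions. The members have a summit just upstream of the start that is lower than that of the thresholded peaks and higher than those of the other 3 classes.

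Coding sequence was less common and intergenic sequence more common in the members than in regions strong in exactly 1 replicate, 7664 in number. The centre lay in a coding exon for 168 members (22.9% against 32.8%, odds ratio 0.607 by Fisher's exact test, adjusted p = 9.65e-08 over 6 classes). It was intergenic for 302 members (41.1% against 32.9%, odds ratio of 1.42, adjusted p by Fisher's exact test = 3.55e-05). Introns held 211 members (28.7% against 28.1%), 5′ UTRs held 22 and 3′ UTRs 32, and these shares did not pass. Replicate 2 taken alone did not show this pattern: its 4952 strong regions lay in coding exons more often than the rest (odds ratio 1.14 by Fisher's exact test, adjusted p = 0.000321) and the intergenic odds ratio was 0.983.

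Base composition moved with these classes. The mean GC content within 100 bp of the centre was 42.8% ± 7.75 (SD over 735 regions) in the members, 40.01% in replicate 1 only, 39.3% in replicate 2 only, 37.4% in neither and 46.5% in thresholded peaks. Windows centred 1000 bp to each side of the members had a mean of 37.3%. The part of GC content in the shares above was not tested.

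Places where neighbouring genes start away from each other were enriched among the members. The centre lay in the windows of a pair of divergent starts for 50 members (6.80% against 2.79% of regions strong in exactly 1 replicate, odds ratio of 2.54, adjusted p by Fisher's exact test = 2.59e-07 over 3 layouts). Examples were the region upstream of both *hsp-110*, a chaperone gene, and, by 209 bp, *rpn-3*, a proteasome lid gene (chromosome III, 8446949 to 8447338, ranks 84 and 3683), and that between *rps-10* and *rpl-24.1*, 2 ribosomal protein genes (ranks 4106 and 2563). Among regions of pooled rank 3000 or better the odds ratio was 2.24 (Fisher's exact test, adjusted p = 0.000510). In thresholded peaks the share was 17.5%.

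Genes of snoRNAs and snRNAs, which guide the modification of ribosomal RNA and act in splicing, were the neighbours with the largest odds ratio of the 3 layouts. Such a gene lay within 500 bp of 41 members (5.58%, exact 95% interval 4.03 to 7.49%) against 1.19% of regions strong in exactly 1 replicate (odds ratio 4.92 by Fisher's exact test, adjusted p = 4.94e-13). The share was 7.22% in thresholded peaks and 0.653% in regions strong in neither replicate. The odds ratio was 4.17 among regions of pooled rank 3000 or better and 5.23 among leading regions. These 41 members comprised 35 beside 30 snoRNA genes and 6 beside 5 snRNA genes, and 7 of the 35 centres lay inside the snoRNA gene.

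Named examples covered intronic and free-standing RNA genes. The member over *C05D2.15* in an intron, nearest to the start of *madf-11*, had signals of 14.3 and 11.1 (ranks 181 and 1081). The member over *ZK994.7* had signals of 18.4 and 10.9 (ranks 74 and 1221), and that 271 bp from *F54E7.10* also lay 191 bp upstream of *rps-12*, with signals of 15.9 and 11.1 (ranks 121 and 1074). In these 3 members replicate 1 ranked the region higher than replicate 2. The opposite order was seen 31 bp from the snRNA gene *R07E5.16* (ranks 645 and 77). A member 6 bp from the snRNA gene *T11F9.15* (ranks 2547 and 4111) lay 389 bp upstream of *snr-4*, which encodes an Sm protein of the spliceosome. Members also lay within 100 bp of *sls-2.2* (86 bp, ranks 421 and 323) and *sls-2.3* (21 bp, ranks 97 and 306), genes of the SL2 spliced leader RNA. Neither of these 2 led its replicate regions, and the ranks at *sls-2.3* are those of replicate regions that a thresholded peak overlaps as well. Copies of snRNA genes can be near-identical, so the assignment of reads to one copy is uncertain.

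Genes of tRNAs lay within 500 bp of 24 members (3.27% against 1.83%, odds ratio of 1.81, adjusted p by Fisher's exact test = 0.0113). Among regions of pooled rank 3000 or better the difference was reversed and did not pass (3.40% against 3.85%, odds ratio 0.879 by Fisher's exact test, adjusted p = 0.784). A single tRNA gene accounted for a pair of members nearest to *xol-1* on chromosome X, at ranks 81 and 248 and at ranks 176 and 248. tRNA genes are multicopy, so the assignment of their reads is also uncertain.

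MicroRNA genes and other RNA genes were counted without a test. A microRNA gene lay within 500 bp of 12 members (1.63%) and of 0.391% of regions strong in exactly 1 replicate. They included *cel-mir-56* (333 bp, ranks 164 and 581) and *cel-mir-54* (225 bp, ranks 936 and 609), 2 microRNAs of the mir-51 family clustered on chromosome X, and *cel-mir-52* of the same family (28 bp, ranks 55 and 783), where both ranks are those of replicate regions that a thresholded peak overlaps as well. The others included *cel-mir-80* (211 bp, ranks 1539 and 136), *cel-mir-241* of the let-7 family (210 bp, ranks 2869 and 510) and *cel-mir-71* (487 bp, ranks 2938 and 472). Of these 12 members 7 were leading. Genes annotated as ncRNA lay near 20.3% of members against 10.9%, and pseudogenes near 0.816% against 2.90%. In thresholded peaks these shares were 18.6% and 1.03%.

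The frequency of the known SKN-1 site in the members could not be told from that elsewhere. It occurred within 100 bp of the centre of 68 members (9.25%, exact 95% interval 7.26 to 11.6%), of 8.91% of regions strong in exactly 1 replicate (odds ratio of 1.04, adjusted p by Fisher's exact test = 0.858 over 7 motifs) and of 9.35% of all pooled regions. In equally long windows placed 1000 bp to either side the share was 7.89% (odds ratio 1.19, Fisher's exact test, p = 0.289). The compared windows differed in mean GC content. It was 42.8% in the members, 37.3% in the windows to either side, 40.01% in replicate 1 only and 39.3% in replicate 2 only. The part of GC content in these site shares was not tested. Thresholded peaks held the site in 5.15%. With replicate 1 alone, its strong regions held the site less often than the rest (8.30% against 9.54%, odds ratio 0.858, adjusted p = 0.0151 by Fisher's exact test). The direction also turned under several of the alternative settings tried against regions strong in 1 replicate, which are listed in the closing section. Examples of sites are given above for *kin-20*, *wrt-3*, *ZC21.8*, *Y71H10B.1* and *cts-1*, whose regions had pooled ranks of 98, 154, 228, 238 and 310.

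The GAGA repeat was more frequent in the members than in regions strong in 1 replicate. The 8 bases GAGAGAGA, on either strand, occurred in 58 members (7.89%, exact 95% interval 6.05 to 10.1%) against 2.81% of regions strong in exactly 1 replicate (odds ratio 2.97 by Fisher's exact test, adjusted p = 7.20e-10) and 2.33% of all pooled regions. Thresholded peaks held it in 9.28%. In *Drosophila* this repeat is bound by the GAGA factor. Pooled regions of rank 3000 or better gave an odds ratio of 2.77. Of the 58 members, 19 were in a promoter window (32.8%, against 36.3% of the members without the repeat) and 6 were on chromosome X (10.3% against 21.9%), which are counts without a test. Mean GC content was 45.8% in the 58 and 42.5% in the others. Replicate ranks of the printed examples were 44 and 3323 for *Y54G11A.2*, 313 and 1076 for *nhr-34*, 1179 and 78 for *T19C3.4* and 183 and 3172 for *epg-9*.

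The other 5 motifs gave 1 pass. The GC box (GGGCGG) occurred in 50 members (6.80% against 4.59%, odds ratio of 1.52, adjusted p by Fisher's exact test = 0.0384), and this pass was lost among regions of pooled rank 3000 or better (adjusted p = 0.105), with the 2500 strongest regions per replicate (adjusted p = 0.696), with the centre required inside the replicate region (adjusted p = 0.357) and with replicate 2 alone (adjusted p = 0.253). The GATA-type motif (TGATAAG, 3.95%), the AP-1 motif (1.77%), the E-box (CACGTG, 6.26%) and the E2F-type motif (3.81%) did not pass. The E-box passed with the 10000 strongest regions per replicate (6.17% against 4.57%, adjusted p = 0.00920 by Fisher's exact test), and the E-box and the E2F-type motif passed with replicate 1 alone. Over all pooled regions these 4 shares were 3.86%, 1.95%, 4.37% and 2.51%, and the GC box was in 4.12%.

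**Figure D4:**
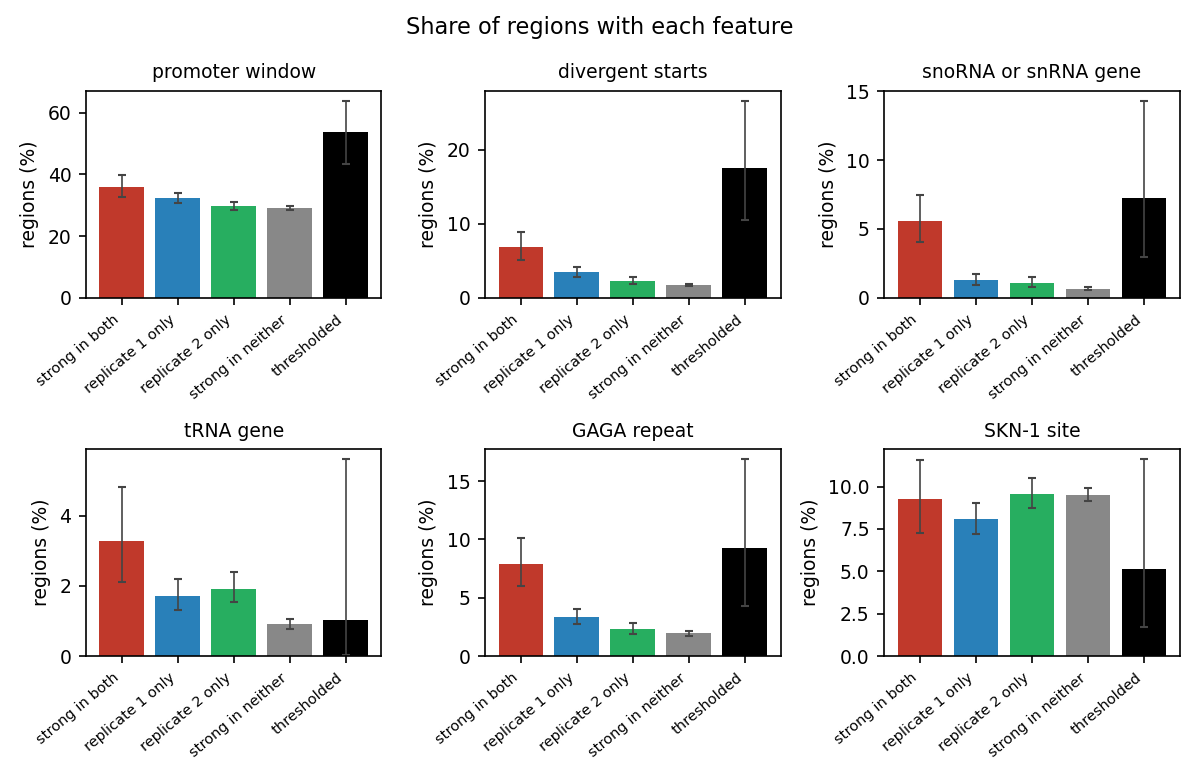
Share of regions (y, %, each panel with its own axis from 0) with a promoter-window centre, divergent starts, a snoRNA or snRNA gene or a tRNA gene within 500 bp, the GAGA repeat or the SKN-1 site, for 5 classes of pooled regions; error bars are exact 95% binomial intervals over regions. Members (36.1% in promoter windows, 5.58% near snoRNA or snRNA genes, 7.89% with the repeat) stand above the classes strong in 1 or neither replicate in the first 5 panels, and the SKN-1 site stands between 5.15% and 9.58% in all classes.

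Chromosomes differed too little to pass. Members were 18.5% on chromosome I, 16.5% on II, 14.4% on III, 14.1% on IV, 15.5% on V and 20.95% on X, and none of the 6 shares passed against regions strong in exactly 1 replicate (Fisher's exact test). The lowest unadjusted p was 0.0509, for V (15.5% against 18.4%), so no chromosome had an unadjusted p under the threshold. Chromosome V passed among leading regions (14.1% against 18.7%, adjusted p = 0.0380 by Fisher's exact test) and in the ce10 lists (adjusted p = 0.0422).

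Chaperone genes, whose products fold other proteins, had the highest share among the 36 gene lists, which are described by counts beside the 1.45% of all protein-coding genes. A member lay in the window of 8 of 74 chaperone genes (10.8%). They were *hsp-3*, *hsp-110*, *cct-1*, *cct-8* and the J-domain co-chaperone genes *dnj-5*, *dnj-11*, *dnj-12* and *dnj-13*. The region 238 bp upstream of *cct-1* had signals of 11.5 and 13.1 (ranks 501 and 390), and that 217 bp upstream of *dnj-13* had 15.7 and 13.9 (ranks 126 and 263). At *hsp-110* the replicates differed more, with signals of 17.7 and 8.71. The list also had a high share among regions strong in exactly 1 replicate, 28.4% beside 12.2% of all genes, and so did ribosomal proteins (38.3%).

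Cytosolic ribosomal protein genes were reached in 7 of 81 cases (8.64%), the same number as by the thresholded peaks. They were *rpl-1*, *rpl-4*, *rpl-11.2*, *rpl-24.1*, *rps-0*, *rps-10* and *rps-12*. The member 429 bp upstream of *rpl-11.2* had signals of 8.53 in replicate 1 and 21.4 in replicate 2 (ranks 2198 and 18), and that 449 bp upstream of *rpl-1* had 8.43 and 13.2 (ranks 2343 and 372). At *rps-12* the order was the opposite. Among translation factors 2 of 46 were reached (4.35%), *eef-2* (ranks 47 and 3347), which encodes an elongation factor, and *eef-1B.1* (ranks 4736 and 209).

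Genes of protein degradation and acidic compartments were reached as well. Of 57 genes for the proton pump, lysosome and autophagy, 5 were reached (8.77%). Proton pump subunits among them were *vha-12* (263 bp upstream, signals 9.63 and 18.1, ranks 1200 and 52) and *vha-13* (ranks 1145 and 349). The autophagy genes were *epg-7* (ranks 2538 and 1374), *lgg-1* (506 bp upstream, signals 14.2 and 10.2, ranks 187 and 1758) and *lgg-2* (ranks 1061 and 437). The member of *lgg-2* did not lead, and its replicate 2 rank is that of a region that a thresholded peak overlaps as well. Of 33 proteasome genes 2 were reached (6.06%), *pbs-5* and *rpn-3*, whose region is also that of the chaperone gene *hsp-110*. Of 19 endoplasmic reticulum stress response genes 2 were reached (10.5%), *hsp-3* and *ire-1*, the stress sensor (815 bp upstream, signals 8.50 and 15.4, ranks 2240 and 134). The gene *hsp-3* is in the chaperone list too, and regions strong in exactly 1 replicate reached 42.1% of these stress response genes. Of 82 genes of ubiquitin and protein turnover 2 were reached, *ubc-25* (ranks 289 and 3005) and *ubq-1* (ranks 617 and 1118). This share of 2.44% was near the 1.45% of all genes.

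Regulators were also reached. Of the genes of chromatin and the transcription machinery 5 were reached (4.07%), *efl-1* (an E2F factor, ranks 141 and 2562), *mdt-26*, *set-4*, *swsn-4* and *swsn-7*. Of 68 genes of RNA processing 3 were reached (4.41%), *pro-1* (ranks 212 and 4385), *hrpk-1* and *snr-4*. Of 25 bZIP genes *cebp-1* was the 1 reached (4%), and of 274 nuclear receptor genes 5 were (1.82%), close to the share of all genes. Chemoreceptors were below it, with 5 of 1277 (0.392%). The member of the nuclear receptor gene *nhr-35* did not lead. Its ranks (333 and 55) are those of replicate regions that a thresholded peak overlaps as well.

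Genes of detoxification, for which SKN-1 is best known, had counts too low to be told from the 1.45% of all genes, a share at which lists of this size hold about 1 gene or none. The counts were 0 of 40 detoxification and redox genes, 0 of 47 glutathione S-transferases, 0 of 67 UDP-glucuronosyltransferases and 0 of 25 genes that regulate SKN-1, and 1 of 76 cytochrome P450 genes (*cyp-33C3*, ranks 1860 and 4287). Respiratory chain genes (44), histones (81), tRNA synthetases (31), the 21 genes of heat shock and dauer signalling and the 15 GATA factor and endoderm genes had none either, and neither had the 5 lists of markers (germ line, hypodermis, intestine, muscle and neurons). The glutathione S-transferase gene *gst-4*, a standard SKN-1 reporter gene, had a region in its window that was strong in neither replicate (pooled rank 25442). The glutathione synthesis gene *gcs-1*, a direct SKN-1 target, had one strong in replicate 2 only (replicate 2 rank 2145) and one strong in neither. Of the remaining lists, lipid metabolism (*acs-2*), mitochondrial ribosomal proteins (*mrps-28*), the mitochondrial unfolded protein response (*timm-23*), vesicle traffic (*ran-1*), insulin-like peptides (*ins-39*) and neuropeptides (*nlp-3*) had 1 gene each, and the cytoskeleton (*tbb-2*, *tbg-1*), homeobox genes (*ceh-38*, *ceh-99*) and cuticle collagens (*col-97*, *col-122*) had 2 each. The members of *ins-39* and *ceh-38* did not lead, and their ranks are those of replicate regions that a thresholded peak overlaps as well.

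**Figure D5:**
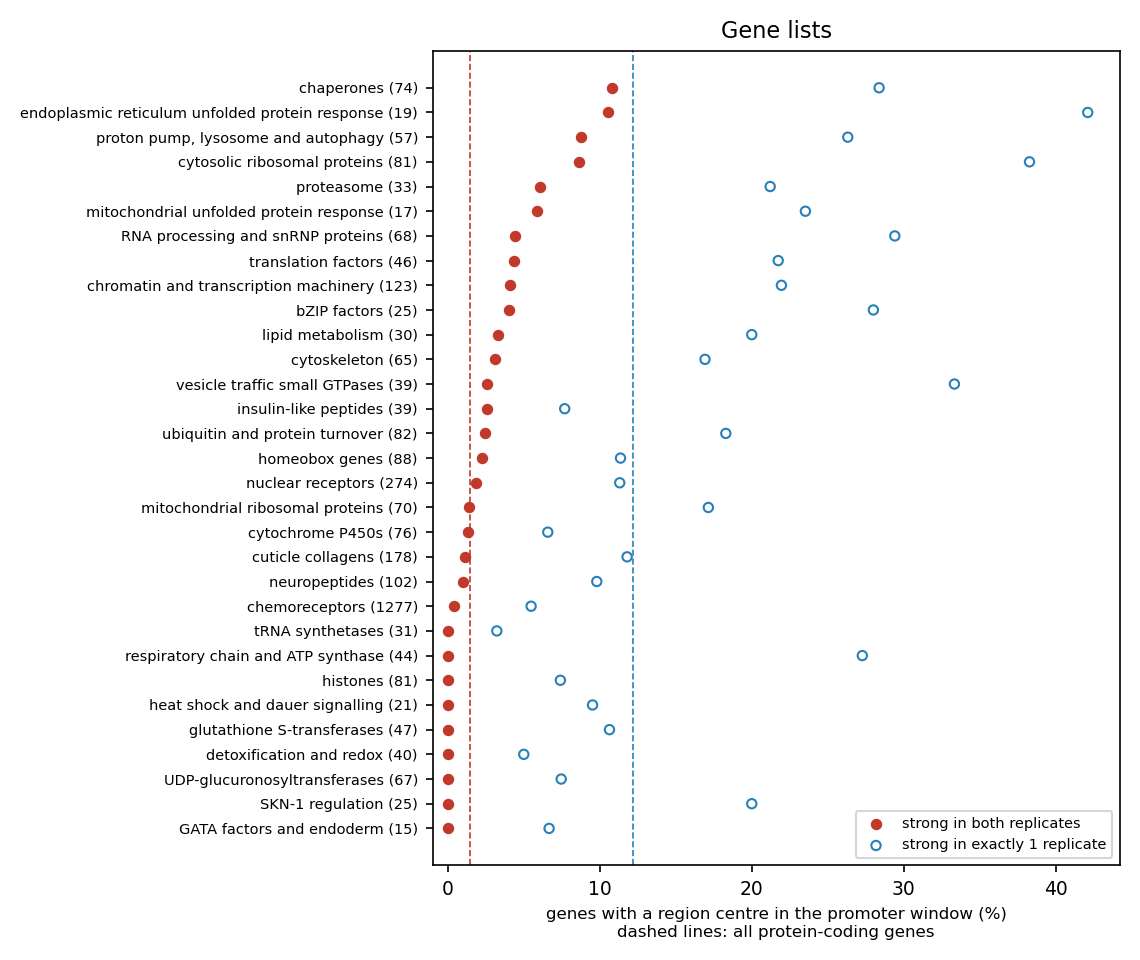
Share of the genes of each list with a region centre in the promoter window (x, %) for members (filled) and for regions strong in exactly 1 replicate (open), with the number of genes of each list after its name; dashed lines mark all protein-coding genes (1.45% and 12.2%), and the 5 marker lists are left out. Chaperones reach 10.8% for members and 28.4% for regions strong in exactly 1 replicate; at 1.45%, a 0 in a short list is near the share of all genes.

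The *skn-1* gene itself had no pooled region in its promoter window but 2 members inside the gene, on chromosome IV. One (5656892 to 5657281) had signals of 9.14 in replicate 1 and 14.7 in replicate 2, at ranks 1550 and 188. The other (5655674 to 5656063) had 9.37 and 9.50, at ranks 1385 and 2505, and a pooled rank of 3118. For both members the nearest protein-coding start was that of *clec-178*, 3138 bp and 1920 bp from the centres. The tagged transgene holds *skn-1* sequence, so reads from it and from the gene in its own place cannot be told apart here.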

How the data were processed

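ChIP-seq of eGFP-SKN-1 was available as region lists of 2 biological replicates in 1 group. All but 4 pooled regions had the same width, and the widths given for the replicates are medians. The deposited signal value of each region is the authors' own; per the labels, lists of peaks with background regions were made per replicate and from the pooled replicates, against a control, before thresholding on reproducibility. The caller, aligner, threshold and scale of the signal are not stated in the labels or lists. The lists hold no read counts, so depth is unknown. Each replicate's list holds 30000 regions, so presence in it does not mark binding. Ensembl release 115 genes and the WBcel235 sequence were used. Shares were compared with two-sided Fisher's exact tests (SciPy 1.17.1), adjusted by Benjamini and Hochberg within each family at a threshold of 0.05, with exact Clopper-Pearson 95% intervals; these steps were tested on simulated data. With 1 group no test compares conditions.

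The members and gene lists were chosen with earlier results of these data known. Of 224 symbols typed into the lists, 3 matched no annotated gene. The genes named are the 20 members with the best worse rank, up to 25 genes by pooled signal of the lists other than nuclear receptors, collagens, chemoreceptors and markers, and in any case *gcs-1*, *gst-4* and *skn-1*; leading members, RNA genes, motif examples and further list genes were chosen after their values were seen. Alternatives were 2500 or 10000 strong regions, the centre inside the replicate region, members away from thresholded peaks, a pooled rank limit of 3000, each replicate left out, other windows, the ce10 lists, and leading regions, the last added after seeing the data.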

Additional observations from a re-analysis of the deposited data

How the results depend on the processing

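The number of members depended on the rule: 297 with the 2500 and 1831 with the 10000 strongest regions per replicate, 350 with the pooled centre inside the replicate regions, and 4952 and 4182 without replicate 1 and without replicate 2. The genes in promoter windows then numbered 131, 643, 175, 1536 and 1472, and 164 with a 500 bp window. Leaving out a replicate drops the requirement of overlap, so its members are the strong regions of the other. The promoter odds ratio against replicate 1 only passed with the 500 bp window (1.55), and against neither it did not pass at pooled rank 3000 or better (1.21) or without replicate 1 (1.06; without replicate 2, 1.199). Without replicate 1 the coding exon (1.14) and intergenic (0.983) odds ratios reversed; without replicate 2 they were 0.893 and 1.13. The tRNA odds ratio reversed at pooled rank 3000 or better (0.879). Odds ratios for divergent starts, snoRNA or snRNA genes and the GAGA repeat kept their direction and passed under every alternative run; without a replicate they ranged from 1.49 to 2.27, 2.43 to 2.82 and 1.497 to 2.12.

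The SKN-1 site odds ratio reversed against regions strong in 1 replicate with 10000 strong regions (0.943), the centre inside (0.925), members away from thresholded peaks (0.992), pooled rank 3000 or better (0.930), motif windows of 50 bp (0.800) or the whole pooled region (0.880), and leading regions (0.993). Against the rest of the pooled regions it was 0.858 without replicate 2, which passed, and 1.02 without replicate 1. Against flanks it reversed with 10000 regions (0.951), 50 bp (0.873) and the whole region (0.908), and without a replicate it was 0.884 to 0.966. The cause was not tested. The number of chromosomes that passed was 1 in ce10, 1 among leading regions, and 1 and 5 without replicate 1 and 2; the number of other motifs was 3 with 10000 regions, 1 with 2500 regions, the centre inside or pooled rank 3000 or better, and 1 and 4 without replicate 1 and 2.

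Single items that had not passed also reversed: with 2500 strong regions chromosomes II (0.961), III (1.04), IV (1.03) and X (0.981); with 10000 the 3′ UTR (0.982), intron (0.976) and other exon (1.12); with the centre inside the 3′ UTR (0.795), intron (0.966) and chromosome IV (1.03); at pooled rank 3000 or better chromosomes IV (1.17) and X (0.968) and the GATA-type motif (1.14). Without a replicate, the 3′ UTR was 0.974 to 1.05, the intron 0.875 to 0.938, other exon 0.881 to 1.37, chromosome I 0.985 to 1.17, II 0.911 to 0.978, III 1.07 to 1.10, GATA-type 1.02 to 1.13, AP-1 1.04 to 1.16 and E2F-type 0.918 to 1.41. The intron reversal without replicate 1 (0.875) passed (adjusted p = 0.000321 by Fisher's exact test). The 5′ UTR passed without replicate 2 (odds ratio 1.43, adjusted p = 0.00402 by Fisher's exact test).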
